A study of Drosophila melanogaster with 3 samples.

Results

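Genes for 10 enzymes of glycolysis were followed in a genome-wide map of Runt binding in the Drosophila melanogaster embryo: Hex-A, Pgi, Pfk, Tpi, Gapdh1, Gapdh2, Pgk, Eno, Pyk and Ldh. These 10 genes, of 13945 protein-coding genes on the main chromosome arms, were chosen by their place in the pathway after the strong Runt peak at Gapdh2 was known. For each gene, peaks were taken when their summit, the point of highest signal, lay in the gene span or within 5 kb of it. The measured values that chose them were the peak positions and signals themselves, so ranks and counts below are a description and no test was run on them. Of the 3065 peaks in the reproducible list, 13 lay at these genes.

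Binding of Runt, a transcription factor of the RUNX family with a well-known part in embryonic segmentation, was measured by ChIP-seq, the sequencing of DNA recovered with immunoprecipitated chromatin. All samples were whole embryos of 0 to 16 hours from a single transgenic line that stably expresses Runt with GFP at its C-terminus. An anti-GFP antibody was used for the precipitation, in 3 biological replicates that form 1 group with no second condition. All replicates carry the transgene, the sources used here do not name its promoter, sex was not recorded, and signals of all embryonic cell types are mixed. Peaks came as 30000 per replicate, 30000 for the pooled replicates, and the 3065 that met the authors' cut on irreproducible discovery rate (IDR), which are the 3065 pooled peaks with the highest signal. A rank is the place of a peak by signal within its own list, with 1 the strongest. The scaling of the signal is not given, so signals are read only within a list. The lists do not give sequencing depth, and because 1 control alignment served every replicate, the replicate lists are not wholly independent.

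Glycolysis converts glucose to pyruvate through a fixed chain of enzymes, and in some tissues lactate dehydrogenase then turns pyruvate into lactate, which restores the NAD+ that the glyceraldehyde-3-phosphate step uses. In Drosophila, transcription of most genes of the chain is known to rise together during embryogenesis under the nuclear receptor ERR, in preparation for larval growth. No expression was measured here. The data give where Runt-GFP signal peaked around each gene, not what the genes did.

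Runt-GFP peaks stood just upstream of a start of 4 genes from separate steps of the pathway, Hex-A, Gapdh2, Eno and Ldh, all among the 202 strongest peaks of the IDR list. The number 202 is the rank of Ldh itself. By strongest IDR summit within 500 bases of a start, Ldh held place 157 among 1584 protein-coding genes with one. Pgk and Pyk had weaker IDR peaks within 500 bases of a start of their own. Pgi and Tpi had start-proximal peaks only below the IDR threshold, and Pfk and Gapdh1 had none in the pooled list. In counts, 6 of the 10 genes had an IDR summit in the span or within 5 kb, where 33.8% of all protein-coding genes did. The same 6 had one within 500 bases of an annotated start of their own, where 11.4% of all protein-coding genes did. These percentages are given for reference and nothing is read from them, since the choice of genes used the same peaks.

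**Figure D1:**
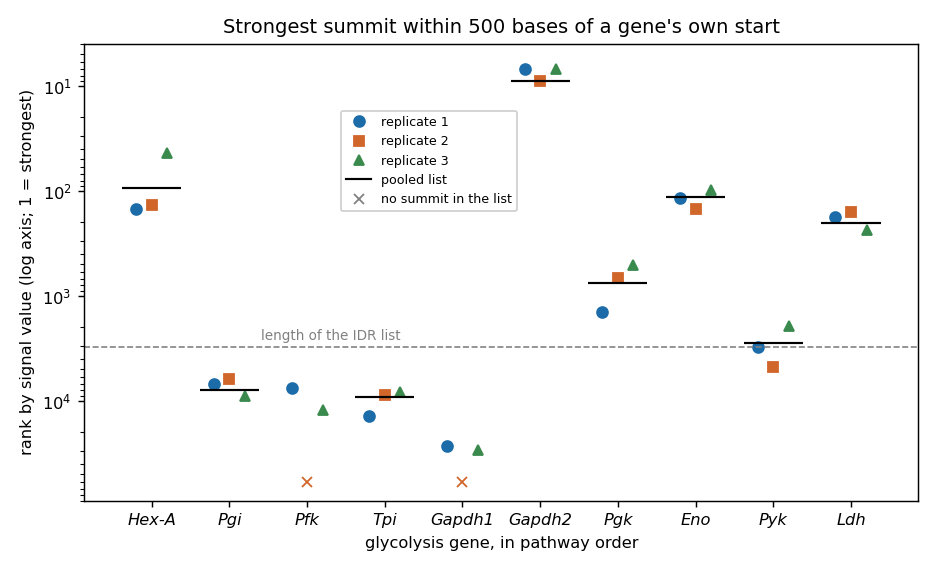
Rank of the strongest summit within 500 bases of an own start (vertical log axis, strongest at the top) for the 10 genes in pathway order, with coloured markers for the replicates, a black bar for the pooled list (above the dashed line it is also the IDR rank) and a cross where a replicate lists none. Gapdh2 sits at rank 9 in the IDR list and at 7, 9 and 7 in the replicates, Hex-A, Eno and Ldh lie between 44 and 235, the other genes lie lower, and Pfk and Gapdh1 have no bar and a cross for replicate 2.

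Gapdh2 encodes glyceraldehyde-3-phosphate dehydrogenase, which oxidises the triose phosphate and forms the NADH of the pathway. The gene (FBgn0001092) lies on the plus strand of X from 15868145 to 15869661 (dm6). Its IDR peak spanned X from 15867799 to 15868149, with the summit 151 bases upstream of the 5′ start. It had rank 9 and a signal of 1358, where the strongest IDR peak reached 1649 and the weakest 131. Among the 1584 protein-coding genes with an IDR summit within 500 bases of a start, only 5 had a stronger one. The replicates gave ranks of 7, 9 and 7 (mean 7.67 ± 1.15, SD, n = 3), with signals of 346, 450 and 571 in replicates 1, 2 and 3. Their summits lay 168, 157 and 167 bases upstream, within 11 bases of each other. The nearest start of another coding gene, CG16952, was 2189 bases away, so Gapdh2 was the sole gene whose start lay near this summit.

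The promoter window of Gapdh2 and those of Hex-A, Eno and Ldh are shown because they hold the strongest summits of the set. Each window runs from 250 bases before to 50 after the annotated start, 5′ to 3′ on the gene's strand, and was read from the RefSeq Release 6 genome, the build of the peak files. Capitals mark the 21 bases centred on the IDR summit.
Gapdh2, chrX:15867895-15868194, plus strand: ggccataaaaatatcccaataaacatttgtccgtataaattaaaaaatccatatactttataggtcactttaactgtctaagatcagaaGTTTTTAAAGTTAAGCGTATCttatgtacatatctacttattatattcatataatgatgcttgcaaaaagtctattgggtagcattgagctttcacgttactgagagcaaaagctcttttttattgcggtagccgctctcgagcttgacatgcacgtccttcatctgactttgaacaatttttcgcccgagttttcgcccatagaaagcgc
Hex-A, chrX:9585425-9585724, plus strand: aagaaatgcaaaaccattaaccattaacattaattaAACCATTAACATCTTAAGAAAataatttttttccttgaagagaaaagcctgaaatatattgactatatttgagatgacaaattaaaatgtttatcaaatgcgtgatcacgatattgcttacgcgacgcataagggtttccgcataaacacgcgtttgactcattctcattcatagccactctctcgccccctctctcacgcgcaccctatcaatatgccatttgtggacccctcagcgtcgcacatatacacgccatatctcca
Eno, chr2L:1727668-1727967, minus strand: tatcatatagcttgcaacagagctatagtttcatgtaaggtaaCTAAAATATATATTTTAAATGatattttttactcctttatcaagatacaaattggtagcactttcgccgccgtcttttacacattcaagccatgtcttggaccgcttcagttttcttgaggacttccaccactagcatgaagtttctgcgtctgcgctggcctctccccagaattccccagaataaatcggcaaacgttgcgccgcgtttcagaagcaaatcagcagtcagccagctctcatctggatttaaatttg
Ldh, chr3L:6262645-6262944, minus strand: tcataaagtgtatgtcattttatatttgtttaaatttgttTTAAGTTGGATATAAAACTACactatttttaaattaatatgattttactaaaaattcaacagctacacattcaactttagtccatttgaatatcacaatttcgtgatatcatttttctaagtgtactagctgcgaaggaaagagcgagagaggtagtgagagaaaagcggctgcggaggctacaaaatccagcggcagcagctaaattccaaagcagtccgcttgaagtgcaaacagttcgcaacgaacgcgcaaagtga
In each of the 4 the capitals fall in the first part of the window, in a stretch rich in A and T. G and C made up 28.6% of the capital bases for Gapdh2, 23.8% for Hex-A, 9.52% for Eno and 23.8% for Ldh. Between their outermost bases, the capitals of Eno hold no G or C.

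Hex-A encodes the main hexokinase, which phosphorylates glucose at the entry of the pathway. The gene (FBgn0001186) lies on the plus strand of X from 9585675 to 9589813, and its strongest IDR summit was 204 bases upstream of the 5′ start, at rank 94 with a signal of 699. Replicates 1, 2 and 3 placed it at ranks 151, 138 and 44, with signals of 136, 207 and 373. Replicate 3 therefore ranked it well above the other two, and its summit also lay farther out, 228 bases upstream, against 152 and 141. A further IDR summit with rank 234 and a signal of 482 lay 1744 bases upstream of Hex-A. That summit was nearer to the start of the non-coding gene lncRNA:CR45541, at 246 bases. Its replicate ranks were 188, 286 and 269, and the 3 replicate summits fell within 3 bases of each other, the tightest placement among the 13 IDR summits at these genes.

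Eno encodes enolase, which forms phosphoenolpyruvate. The gene (FBgn0000579) lies on the minus strand of 2L from 1724768 to 1729636 and has 3 annotated starts. Its IDR summit, with rank 116 and a signal of 642, was 197 bases upstream of the most downstream of these starts, at 1727717, and so within an intron of the longer transcripts. Replicate ranks were 118, 148 and 99, with signals of 150, 203 and 296, and the summits lay 188, 230 and 144 bases upstream. The ranks stayed close while the summit positions spread over 86 bases. The nearest other coding start, of the exosome gene Rrp40, was 818 bases away.

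Ldh encodes lactate dehydrogenase, the enzyme that reduces pyruvate to lactate. The gene (FBgn0001258) lies on the minus strand of 3L from 6259105 to 6262694, and its lead summit was 200 bases upstream of the 5′ start, at rank 202 with a signal of 520. Replicate ranks were 177, 159 and 235, with signals of 131, 195 and 200 and summits 205, 213 and 194 bases upstream. All 3 replicates thus put it among the 235 strongest of 30000 peaks, with positions within 19 bases. The nearest other start, of lncRNA:CR44522, was 505 bases away. A weaker IDR summit, at rank 1585, lay beyond the 3′ end of Ldh and 342 bases upstream of the start of its neighbour Best2, with replicate ranks of 1335, 1465 and 2455.

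**Figure D2:**
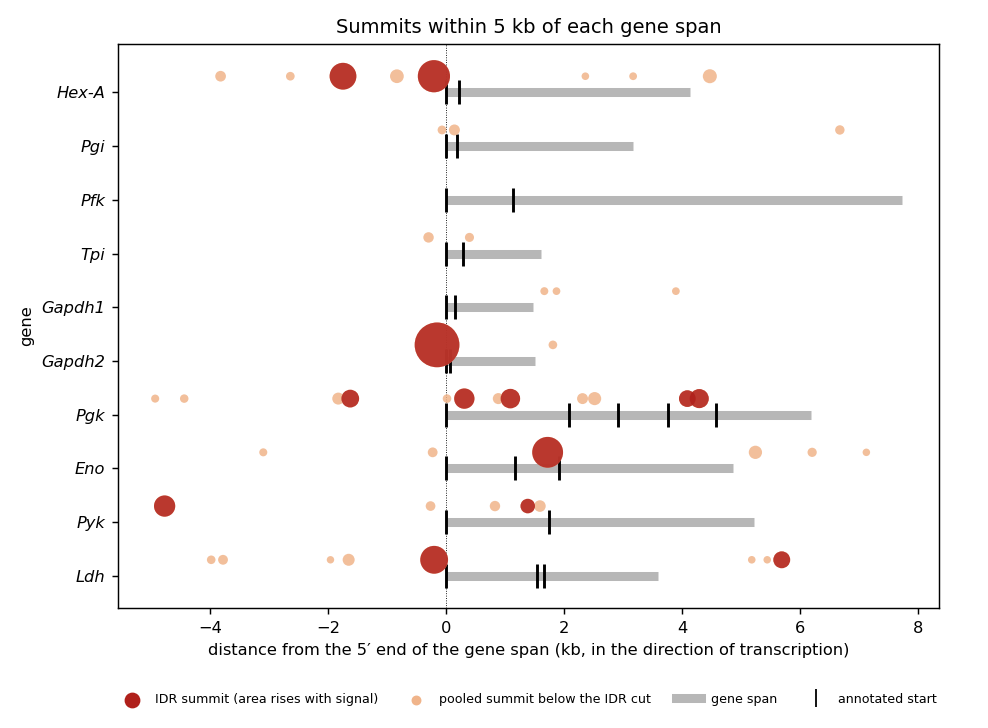
Summits within 5 kb of each gene span, plotted by distance in kb from the 5′ end in the direction of transcription; grey bars are gene spans, black ticks annotated starts, dark dots IDR summits with area rising with signal, and light dots pooled summits below the IDR threshold. The Gapdh2, Hex-A and Ldh dots sit just left of the 5′ end, the Eno dot just before its most downstream start, Pgk has 5 dark dots, and Pgi, Pfk, Tpi and Gapdh1 have none.

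The lead summits of these 4 genes lay at like distances from a start, between 151 and 204 bases upstream in the IDR list. Across the 3 replicate lists the distances ran from 141 to 230 bases. Over the whole IDR list, 1280 summits lay within 500 bases of their nearest coding start. Of those, 989 (77.3%) were upstream, with a median offset of -119 bases and quartiles of -220 and -16.8. The band from 100 to 250 bases upstream, which holds the 4 lead summits, held 487 of the 1280 (38.0%). An upstream position of this size was therefore common among start-proximal Runt-GFP summits, and the 4 genes share it with many others.

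**Figure D3:**
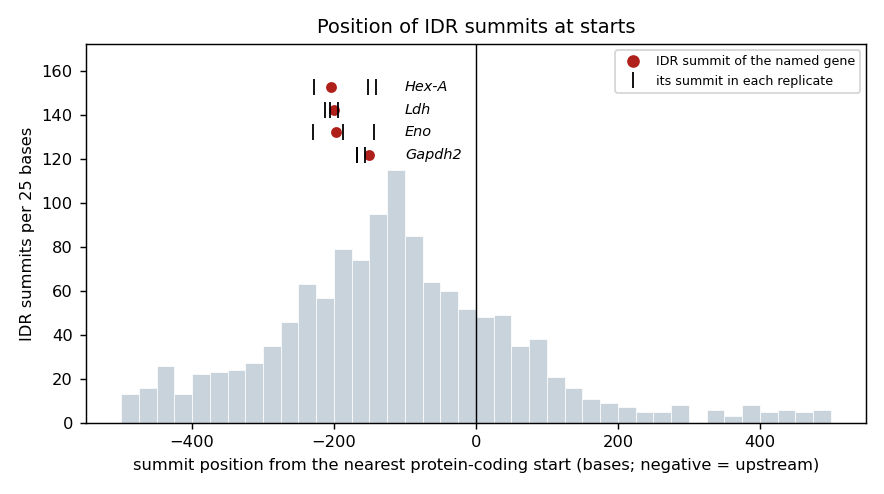
Number of IDR summits by distance in bases from the nearest protein-coding start (negative is upstream), in steps of 25 bases; red dots are the lead IDR summits of 4 glycolysis genes at arbitrary heights and black ticks their replicate summits. Gapdh2 at -151, Eno at -197, Ldh at -200 and Hex-A at -204 all lie upstream, on the left side of the main hump of the distribution.

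Pgk and Pyk encode the enzymes of the ATP-forming steps, phosphoglycerate kinase and pyruvate kinase. Pgk (FBgn0250906, minus strand of 2L, 2746880 to 2753068, 5 annotated starts) had the most IDR summits of the 10 genes, with 5. Their ranks were 758, 903, 982, 1310 and 1656 and their signals 275, 252, 241, 207 and 183, so none came near those of Gapdh2 or Hex-A. The strongest lay 311 bases inside Pgk from its 5′ start and 43 bases from the start of Bacc, a gene that shares the locus. The summits of rank 903 and 1310 were also nearest to Bacc, at 468 and 1456 bases. The summits of rank 982 and 1656 were nearest to starts of Pgk itself, at 291 and 333 bases. They were 202 bases apart, and their peak intervals overlapped by 202 bases. In rank, the replicates differed most on the summit of rank 758, which had rank 7265 in replicate 1 and ranks 674 and 506 in replicates 2 and 3. In position they differed most on the summit of rank 903, by 162 bases, with replicate ranks of 498, 3050 and 727. The summit of rank 982, in a non-coding exon, had replicate ranks of 1419, 1870 and 669 and positions within 11 bases.

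Pyk (annotated as PyK, FBgn0267385, plus strand of 3R, 22367536 to 22372746) had an IDR summit of rank 2821 and signal 137 in its own intron, 361 bases upstream of its more downstream start at 22369282. Replicate ranks were 3050, 4731 and 1963, with signals of 34.2, 39.8 and 73.6, and the summits lay 321, 367 and 369 bases upstream. Replicate 2 ranked it outside the length of the IDR list. The stronger IDR peak near Pyk, at rank 652, lay 4765 bases upstream of the gene and 124 bases from the start of CG7071, with replicate ranks of 396, 561 and 1245. Among the IDR summits at the 10 genes, the intronic Pyk summit of rank 2821 had the lowest signal. Its signal of 137 stood beside the lowest IDR signal of 131, and the glycolysis summits just outside had signals of 127 and 122, both at Hex-A, 113 at Eno and 111 at Pgk. The summit windows of Pyk and of the Pgk summit of rank 982 are shown as the ones nearest to these genes' own starts.
They are 101 bases long, 5′ to 3′ on the gene's strand, from the same genome, and capitals again mark the 21 bases centred on the summit.
Pyk, chr3R:22368871-22368971, plus strand: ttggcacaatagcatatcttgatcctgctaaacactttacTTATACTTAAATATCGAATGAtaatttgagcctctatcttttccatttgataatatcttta
Pgk, chr2L:2748728-2748828, minus strand: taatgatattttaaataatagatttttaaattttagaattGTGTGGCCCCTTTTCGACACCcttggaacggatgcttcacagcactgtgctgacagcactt
G and C made up 19.0% of the capitals for Pyk and 61.9% for Pgk, the single case among the 6 printed summits in which G and C outnumbered A and T.

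Start-proximal signal at the remaining 4 genes was lower, and for Pfk and Gapdh1 not every replicate listed a summit within 500 bases of a start. In the pooled list, 9 of the 10 genes had a summit in the span or within 5 kb, all but Pfk, where 81.6% of all protein-coding genes did. A pooled summit within 500 bases of an own start was found for 8 of the 10, and for 42.8% of all protein-coding genes. The same 8, all but Pfk and Gapdh1, had such a summit in all 3 replicate lists, as did 29.6% of all protein-coding genes. These lists were each 30000 peaks long by construction, so a low rank in them carries little on whether a site was bound.

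Pgi, for the glucose phosphate isomerase that follows hexokinase, had a pooled summit of rank 7852, signal 75.2, 40 bases upstream of its more downstream start at 8913886. Its replicate ranks were 6988, 6176 and 9061. The summits of replicates 1 and 3 lay 37 and 6 bases upstream of the 5′ start at 8914069, and that of replicate 2 lay 2 bases upstream of the start at 8913886. Tpi, for triose phosphate isomerase, had a pooled summit of rank 9298, signal 67.8, 295 bases upstream of its 5′ start at 30134599. Its replicate ranks were 13865, 8898 and 8334. The summits of replicates 2 and 3 lay 350 and 320 bases upstream of that start, while that of replicate 1 lay 118 bases downstream of the other start at 30134309. Replicate 1 also listed a weaker summit, at rank 15005, 73 bases upstream of the 5′ start. Neither gene had its strongest start-proximal summit at the same start in all 3 replicates.

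Pfk, for phosphofructokinase, the enzyme of the committed step, had start-proximal summits at rank 7575 in replicate 1 and 12251 in replicate 3. Replicate 2 listed none, and neither did the pooled list. Gapdh1, the paralog of Gapdh2 that encodes the same enzyme activity, had start-proximal summits at rank 27191 in replicate 1 and 29566 in replicate 3. Replicate 2 listed none at a start of Gapdh1, but had a summit of rank 12979 beyond its 3′ end. The strongest pooled summit within 5 kb of Gapdh1 had rank 23689 and lay beyond its 3′ end. Of the pair of GAPDH genes, one thus had one of the 10 strongest IDR peaks of the genome at its start and the other had start-proximal peaks near the bottom of 2 of the 3 replicate lists.

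Base composition followed the peaks only in part. In the 101 bases centred on the lead summit, GC content was 25.7% for Gapdh2, 24.8% for Hex-A, 26.7% for Eno, 16.8% for Ldh, 28.7% for Pyk and 46.5% for Pgk. The Pgk value is for its summit of rank 758, 43 bases from the start of Bacc. The Pgk window printed above, of rank 982, held 36.6%. Windows centred 500 bases to either side had a mean GC content of 41.1%, 42.6%, 35.6%, 54.0%, 49.5% and 51.0% for the same 6 lead summits. All 6 were therefore poorer in GC than their flanks, by most at Ldh and by least at the Pgk summit of rank 758. Of the genes without an IDR peak, Tpi had 34.7% at its strongest start-proximal pooled summit, against 64.4% in the flanks. Pgi went the other way, with 49.5% at its pooled summit against 36.1%. The 1280 start-proximal IDR summits had a GC content of 33.7% ± 10.8 (SD over summits), and 38 of them (2.97%) were at or below the value of Ldh. Over all IDR summits GC content was 34.4% ± 10.5 and that of their flanks 42.2% ± 7.73, so the dip at these genes is shared by the list as a whole.

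**Figure D4:**
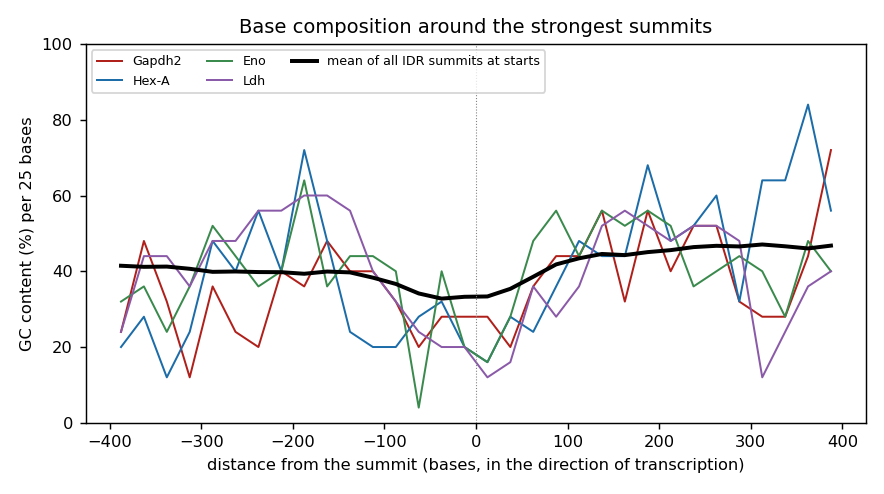
GC content (%) in steps of 25 bases by distance from the summit, in the direction of transcription, for the lead IDR summits of Gapdh2, Hex-A, Eno and Ldh, with the black line the mean over all start-proximal IDR summits. All 4 genes run low around the summit, and the black line dips there too.

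Sequence low in GC upstream of a start was not shared by all genes with an IDR peak, and was also found at genes with none. In the stretch from 250 to 100 bases before the start, GC content was 25.8% for Gapdh2, 24.5% for Hex-A and 21.9% for Ldh at their 5′ starts, and 33.8% for Eno at the start nearest its peak. Pyk and Pgk, which also had start-proximal IDR peaks, went the other way. GC content was 55.6% at the start of Pyk nearest its peak, though 22.5% at its 5′ start. Over the 5 starts of Pgk it ran from 47.0% to 60.9%. Among the genes with no IDR peak, it was 29.1% and 27.2% at the starts of Gapdh1. It was 29.8% and 33.8% at those of Pfk. For Tpi it was 35.1% at the 5′ start and higher at the other start. For Pgi it was 21.9% at the 5′ start and 47.0% at the more downstream start, the one nearest its pooled summit. Over 19607 coding starts the mean was 37.5% ± 10.1 (SD). Both starts of Gapdh1 and of Pfk and the 5′ starts of Pgi and Tpi were thus below that mean with no IDR peak there. The other starts of Pgi and Tpi were above it. So were the start of Pyk nearest its IDR peak and all 5 starts of Pgk.

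RUNX factors are known to recognise a short core, searched here on both strands as TGCGGT, or as the close variant TGTGGT, in each case followed by a pyrimidine (C or T). None of the 13 IDR summits at the glycolysis genes had it within 50 bases, and with so few summits a count of 0 allows a share of up to 23.1% (3 of 13, for counting error only). Over the whole IDR list, 287 of 3065 windows (9.36%) held it, a share that 13 summits cannot tell from 0. With 100 bases to either side, 1 of the 13 had it, the Hex-A summit of rank 234. In promoter windows of 300 bases at the 5′ start, the core was in 11.4% of the 13945 genes and, among the 10, in Pgk. That these letters are not in a window says nothing about the factor itself.

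Other promoter sequences were searched in the same 300-base windows on both strands. These windows were at the 5′ start, so the one for Eno is not the window printed above. For Eno, Pyk and Pgk the searched windows do not hold the IDR summits. TATAAA was found in the windows of Pgi, Tpi, Gapdh1, Gapdh2 and Ldh, and in 45.8% of all genes. It also lay within 50 bases of the lead summits of Gapdh2 and Ldh, as in 22.3% of all IDR windows. The first match on the gene's strand began at -217 from the start for Gapdh2 and at -200 for Ldh. GAGAGAG, recognised by GAGA factor, was found in Hex-A, Pgk and Ldh, and in 5.87% of all genes. TATCGATA, the element of the DNA replication-related element factor DREF, was found in none of the 10 and in 9.36% of all genes. CAAGGTCA, an element bound by ERR, was found in none of the 10 and in 0.495% of all genes. CACGTG, an E-box, was found in none of the 10 and in 4.20% of all genes. ACGTG, the core of the hypoxia response element, was found in Gapdh2 and in 23.2% of all genes. ACGTG is contained in CACGTG. No single one of these sequences was present in all of Gapdh2, Hex-A and Ldh.

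Around the 10 genes, 38 further genes of sugar metabolism were listed. An IDR summit in the span or within 5 kb was found for 20 of them (52.6%, against 33.8% of all protein-coding genes). For CG7069, a pyruvate kinase paralog, that summit was the one of rank 2821 already counted at Pyk. One within 500 bases of an own start was found for 6 (15.8%, against 11.4%), a share close to that of all genes. None of the 4 aldolase and phosphoglycerate mutase genes, which encode the steps of the chain not covered by the 10, had an IDR summit within 5 kb. Glyp, for glycogen phosphorylase, which releases glucose units from glycogen, had the strongest start-proximal peak of the 38, at rank 182 and 204 bases upstream. PCB, for pyruvate carboxylase, followed at rank 570, 275 bases upstream. Pgm1, for phosphoglucomutase, had rank 667, 170 bases upstream. Both listed genes of the glycerol phosphate shuttle had one, Gpo1 at rank 1346 and Gpdh1 at rank 1820, and the sugar-responsive transcription factor gene Mondo had one at rank 2935. Glyp was the single one of these that ranked among the lead glycolysis genes.

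A further 4 genes of the list had a strong peak within 5 kb but none at an own start. For Hex-C, a further hexokinase gene, the peak had rank 11 but its nearest coding start was that of mRpL41. For Treh, which encodes trehalase, it had rank 214 and was nearest to CG10527. For CG12229, a pyruvate kinase paralog, it had rank 244 and was nearest to CG32176. For sima, which encodes the hypoxia-inducible factor alpha subunit, it had rank 354 and was nearest to sima itself. Of these 4, 3 peaks lay nearer to a neighbour than to the sugar metabolism gene. For the lead peaks of Gapdh2, Hex-A, Eno and Ldh, the gene's own start was the nearest coding start. That contrast is largely built in, because the 4 genes were taken from those with no IDR summit at an own start. The strongest IDR peaks near Pgk and Pyk were also nearest to a neighbour, Bacc and CG7071.

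The genes whose start-proximal peak was most like that of Gapdh2 were sought by summed absolute difference in log10 rank over the 3 replicates, among 1553 genes. Art3, a protein arginine methyltransferase gene, and mRpS10, a mitochondrial ribosomal protein gene, share a summit and were closest, with IDR rank 10, replicate ranks of 9, 10 and 16 and a summed difference of 0.514. Fkbp14, a gene of the FK506-binding protein family, came next, with IDR rank 6, replicate ranks of 12, 8 and 4 and a summed difference of 0.528. None of these 3 is a gene of sugar metabolism. The likeness is one of rank over 3 replicates and says nothing on shared function or control.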

How the data were processed

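Peaks of each of the 3 biological replicates were called by the authors against a shared control alignment, and further peaks on the pooled replicate alignments, per the deposited readme files. Which aligner, peak caller and IDR cut were used is not stated in the sources used here. For each peak the deposited lists give a dm6 position and summit with a signal value and its −log10 q-value. The signal is the authors' own and ranked peaks only within a list. Every IDR peak had the same deposited −log10 q-value, 3.82, so it ranked none. No peak was identical between replicates. The 10 genes, the list of 38 further genes and the sequences searched were chosen with earlier results of these data known. Genes named besides the 10 were those of the list with an IDR summit within 500 bases of an own start, otherwise the 4 with the strongest peak within 5 kb, and the 3 most like Gapdh2. Gene spans and starts came from Ensembl release 115, and sequence from RefSeq Release 6. Pyk, GlyS and GlyP were matched through synonyms, as PyK, Glys and Glyp, and all other names by symbol. A gene's own start is any annotated transcript start. Coordinates are 1-based. A replicate summit was followed from an IDR summit when it lay within 200 bases. Counts were checked on simulated data. Alternatives changed distances, list lengths and windows, or left out each replicate. The work used pandas 2.3.3 and numpy 2.4.6 under Python 3.11.15, with scipy 1.17.1 for intervals and matplotlib 3.10.9 for plots.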

Additional observations from a re-analysis of the deposited data

How the results depend on the processing

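Of 39 alternatives over 5 results, 35 were labelled the same and 4 moved. A count was the same when within 1.5 times the reported count. For Gapdh2, reported at rank 9, ranks of 8 and 9 were labelled the same and a rank of 7 moved. Rank 7 was also that of replicates 1 and 3. Counting only summits inside the gene span left 3 genes with an IDR peak, Pgk, Eno and Pyk, since the Gapdh2, Hex-A and Ldh peaks lie upstream of theirs. The Gapdh2 peak, rank 9 in the IDR list, had rank 7 in replicate 1 and rank 7 in replicate 3. Leaving out replicate 1, 2 or 3 kept 2147, 2018 or 1986 of the IDR peaks, and Gapdh2 then had ranks from 7 to 8. The IDR peaks were called on all 3 replicates pooled, so these ranks do not show its place without a replicate. Within 250 bases of an own start 4 genes had an IDR summit, Hex-A, Gapdh2, Eno and Ldh. Counting only the 5′ end of the span also gave 4, with Pgk in place of Eno. Pyk was lost from the 6 in replicate 2 alone, without replicate 1 and without replicate 3. All of these settings include replicate 2, in which the Pyk summit had rank 4731, and Pyk stayed without replicate 2. Pyk was also lost within 250 bases, at the 5′ end alone and among the 1532 strongest IDR peaks. Those settings do not single out replicate 2. Within 10 kb Gapdh1 gained an IDR summit. Without replicate 2 all 10 genes had a start-proximal summit in both remaining lists, Gapdh1 only at ranks 27191 and 29566 of 30000. The share of all protein-coding genes at these alternative settings is not given here, so nothing is read from these counts. No paired analysis was possible because the samples form 1 group. Read depth is unknown, so no value here limits what a deeper experiment would list, and whole embryos do not tell which cells carry a peak.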
